A study of Saccharomyces cerevisiae with 55 samples.

Results

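The 50 genes described here encode assembly factors of the large ribosomal subunit in budding yeast, Saccharomyces cerevisiae. They were taken from a list of named assembly genes, by gene symbol or synonym, and all 50 were found among the 6249 genes or unnamed probes of the array table. Each of the 50 was measured by 1 probe, and 40 of them had a value on all 54 arrays that the labels put in a group. The rule picks them by name, from a list drawn up with earlier results of these data known.

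Large ribosomal subunits are built in the nucleolus, where RNA helicases, GTPases, scaffold and RNA-binding proteins bind the precursor ribosomal RNA and ribosomal proteins, remodel them and leave again before the particle is exported to the cytoplasm. In yeast the genes for these factors are transcribed together as the ribosome biogenesis regulon, which is known for high expression in fast growth and for repression in stress or when the kinase complex TORC1 is inhibited. The same repression forms part of the environmental stress response. Inositol pyrophosphates are small signalling molecules made by the kinases Kcs1 and Vip1 from products of the upstream kinases Arg82 and Ipk1, and Rpd3 is a histone deacetylase.

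The study measured total RNA on 2-colour arrays, each with a mutant or treated sample against a reference sample, and asked what inositol pyrophosphate synthesis and Rpd3 contribute to the stress response. All strains were W303 and MATa. They were wild type (ACY044), the null mutants kcs1 (ACY209), vip1 (ACY211), kcs1/vip1 (ACY236), arg82 (ACY207), ipk1 (ACY237), rpd3 (ACY433) and snt1 (ACY591), which lacks a subunit of the Set3 deacetylase complex, and the altered forms Vip1D487A (ACY584) and Rpd3ibs (ACY614), which the labels name without further description. The sources used here do not say whether each mutant is 1 clone.

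Cells were in mid-log growth in the rich medium YEPD or had received 0.375 M KCl, 0.4 mM H2O2, heat at 42 °C or 200 nM rapamycin, an inhibitor of TORC1, for 20 min. Wild type with each of these was set against wild type in log growth. Each mutant was set against wild type under the same condition, in log growth and in KCl for all mutants and also in H2O2 and heat for kcs1/vip1. The kcs1/vip1 strain was further set against itself, in KCl over log growth, in H2O2 over log growth, and in KCl with rapamycin over KCl alone. The 54 arrays formed 27 such groups, 7 of 3 arrays, 13 of 2 and 7 of 1, on 16 slides.

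Values below are log2 ratios of the first named sample over the second, so a negative value means less RNA in the first. A group's value is the mean ± SD over its arrays. A gene rose or fell where its adjusted p (limma, Benjamini-Hochberg over all genes tested) was below 0.05. Nothing in the labels ties the arrays of a group to separate cultures. The p-values therefore cover array-to-array spread alone, which may be technical. For each gene that spread is pooled over all groups and moderated by limma. It is not the SD of the group printed beside a p-value. The small number of arrays limits the precision.

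Arrays held 5216 to 6206 values, and the check of the altered genes went against the labels on some of them. Deleted genes had low ratios (such as -4.17 to -9.33) or no value on most mutant arrays. The second array labelled kcs1 in log growth had a KCS1 ratio of -0.30 and an IPK1 ratio of -2.87, so it is called here the library labelled kcs1. On the array labelled kcs1/vip1 in heat the VIP1 ratio was -0.01. LEU2 was at -3.97 to -4.41 on the kcs1/vip1 arrays in log growth and KCl, but at 3.19 and 1.57 on both in H2O2, where KCS1 and VIP1 had no value, and at 1.47 on the one in heat. The second arrays of ipk1 in log growth and in KCl, both on slide 7, had no KCS1 value, and the KCl one correlated over genes with the other ipk1 KCl arrays at 0.09 and 0.16 only. The paired Vip1D487A arrays, 1 of each pair dye-swapped, correlated over genes at 0.02 in log growth and 0.15 in KCl. Of 1 further array the title and sample sources disagree, and it entered no comparison.

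**Figure D1:**
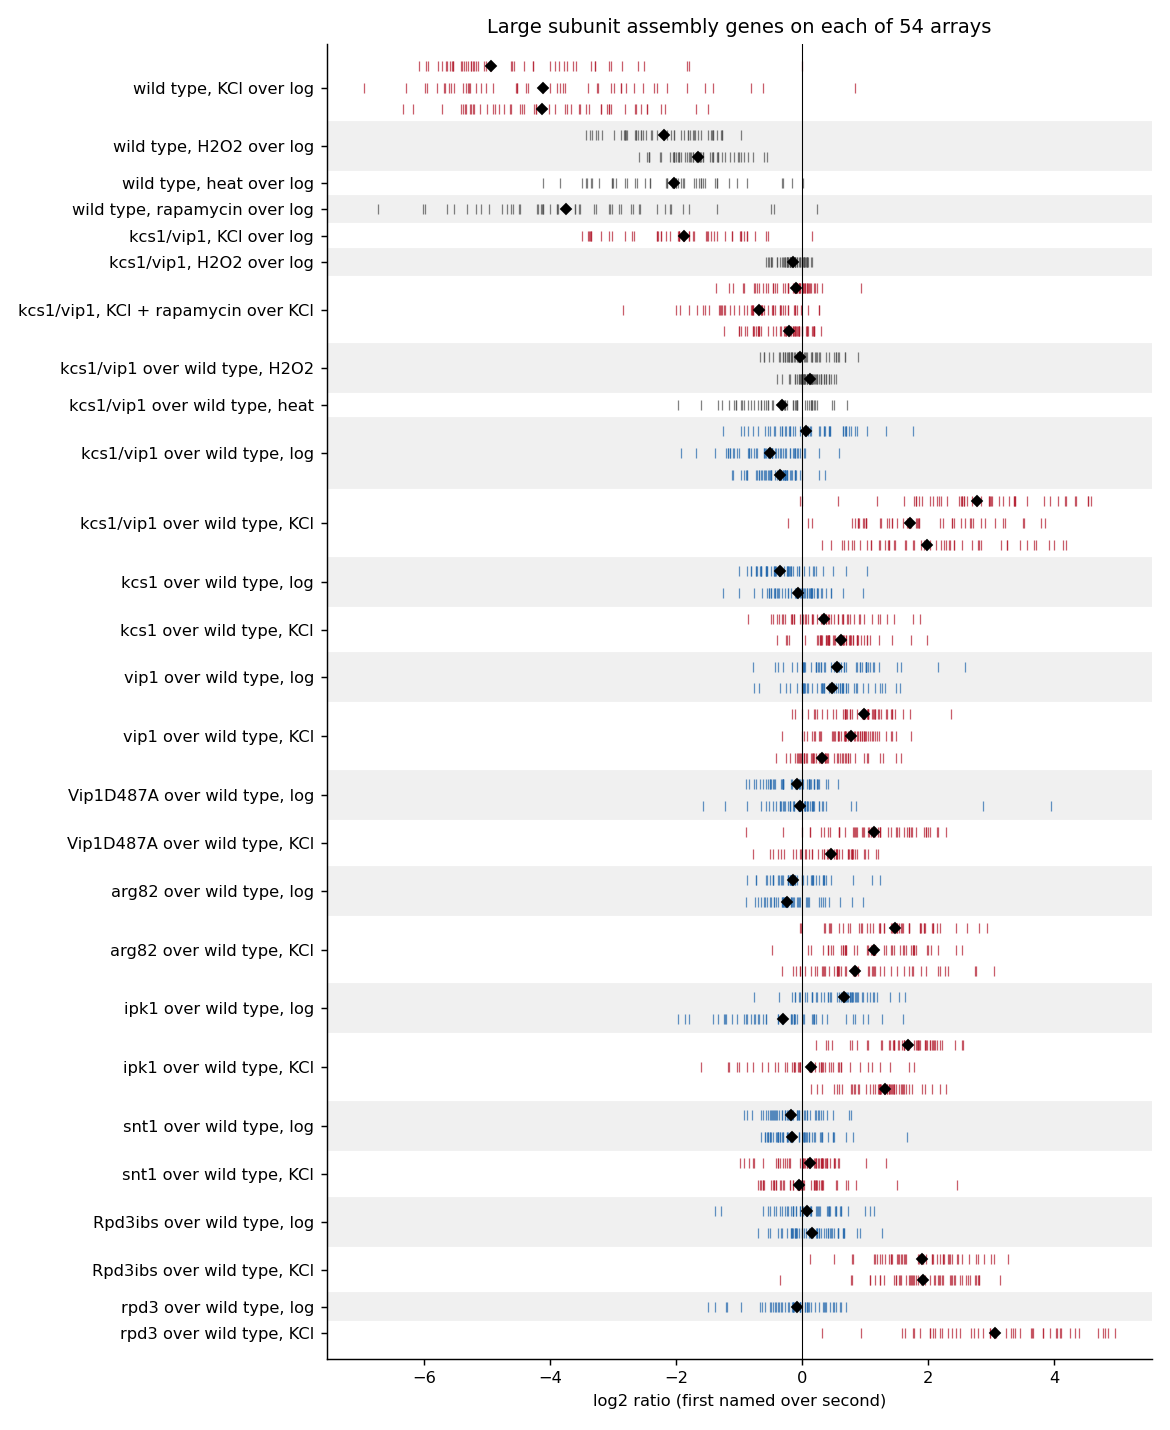
Log2 ratios of the 50 assembly genes on each of the 54 grouped arrays. Each row of ticks is 1 array, each tick 1 gene, and the black diamond the median. Red marks comparisons with KCl, blue mutants in log growth and grey the others. The 3 wild type KCl arrays have medians of -4.94, -4.12 and -4.12, and the 3 kcs1/vip1 over wild type arrays in KCl have medians of 2.77, 1.72 and 1.98.

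In wild type, KCl lowered all 50 assembly genes. Across all genes tested 31.3% fell. The members' median was -4.48 and their means ran from -6.18 (NOC2) to -0.98 (TIF6), beside a median of -0.02 over all 5863 genes tested. The per-array medians were -4.94, -4.12 and -4.12 (n = 3). The 6 lowest genes, given next, encode different kinds of factor.

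NOC2, whose protein travels with precursor particles out of the nucleolus in a pair with Mak21 or Noc3, had ratios of -5.41, -6.95 and -6.17 (-6.18 ± 0.77, adjusted p = 1.19e-18). RLP24, a placeholder that is exchanged for the ribosomal protein Rpl24, had ratios of -5.59, -5.99 and -5.72 (-5.77 ± 0.20, adjusted p = 4.21e-18). The GTPase gene NOG1 had ratios of -5.36, -5.30 and -6.33 (-5.66 ± 0.58). All 3 arrays were far below 0 for each of these genes, and no array was the lowest for all of them. The helicase gene DBP3 had ratios of -5.97, -5.29 and -5.41 (-5.56 ± 0.36). RPF2, a Brix domain protein that acts with Rrs1, had ratios of -5.66, -5.61 and -5.26 (-5.51 ± 0.22). NSA2, a late nuclear factor, had ratios of -5.15, -5.95 and -5.35 (-5.48 ± 0.42). The 3 arrays of these genes lay within about 1 log2 unit of each other.

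At the other end stood genes that fell less or unevenly. TIF6, the anti-association factor that keeps the subunits apart until the large one is mature, had ratios of -0.01, -1.42 and -1.50 (-0.98 ± 0.84, adjusted p = 0.000978). The methyltransferase gene SPB1 had ratios of -4.28, 0.84 and -1.69 (-1.71 ± 2.56, adjusted p = 0.00592). The helicase gene DBP6 had ratios of -1.83, -1.83 and -2.25 (-1.97 ± 0.24). DBP6 was even over the arrays, whereas SPB1 was above 0 on the second array and TIF6 was near 0 on the first, dye-swapped array. The helicase genes SPB4 and DBP10 had ratios of -1.80, -2.15 and -2.64 and of -3.29, -0.82 and -3.19, and MAK11 had ratios of -2.51, -2.67 and -2.18. SSF1 had ratios of -5.78, -0.62 and -5.34, with the second array again apart, as it also was for NOP15 (-5.21, -2.31 and -5.11) and NOP12 (-3.59, -1.54 and -3.43).

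By role, the Nop7 complex was the most even group, with NOP7, ERB1 and YTM1, whose proteins form 1 complex needed for processing of the precursor RNA, at -5.11, -4.94 and -5.24. The 3 Noc genes ran from -6.18 to -4.46, the 4 GTPase genes from -5.66 to -3.14 and the 5 Brix genes from -5.51 to -2.71. The 10 helicase genes ran from -5.56 to -1.97, with a median of -3.70, and the 14 genes for RNA-binding and scaffold proteins from -5.42 (PUF6) to -2.45 (MAK11). The late and export factors held both NSA2 and TIF6, and between them the export receptor gene ARX1 at -4.60 and NIP7 at -5.26.

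Rlp24 and Mrt4 are placeholders for the ribosomal proteins Rpl24 and Rpp0, and Rlp7 is a relative of Rpl7 that acts in processing of the precursor RNA. The related genes were set side by side. RLP24 (-5.77 ± 0.20), RLP7 (-5.19 ± 0.57) and MRT4 (-4.94 ± 1.10) all fell in KCl. RPL24A (-0.01 ± 0.94), RPL24B (-0.44 ± 0.72), RPL7A (-0.46 ± 1.17) and RPP0 (-0.18 ± 0.50), the related ribosomal protein genes, did not pass the test, with adjusted p from 0.177 to 0.990. RPL7B was the exception, at -5.02, -4.84 and -4.95 (-4.94 ± 0.09, adjusted p = 8.10e-18), beside a mean of -5.19 for RLP7. Of the 75 genes for large subunit ribosomal proteins, 24 were lower in KCl, 1 was higher and 50 missed the threshold, and their median was -0.57. Of 19 tested further large subunit assembly genes all 19 fell, with a median of -2.57, and of 51 small subunit processome and assembly genes all 51 fell, with a median of -4.20. RRP12 at -6.13 ± 0.20 and NSR1 at -6.87 ± 0.10 were the lowest of those 2 lists.

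H2O2 lowered the same regulon less far. In wild type with H2O2, 47 of the 50 genes fell where 21.4% of all genes did, and LOC1, SPB1 and NOP16 did not pass. The median was -1.94 (n = 2) and the means ran from -2.98 to -0.76. Every member was below 0 on both arrays, as were 42.8% of all genes. The per-array medians were -2.20 and -1.66.

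NOG1 was the lowest, with ratios of -3.37 and -2.59 (-2.98 ± 0.55, adjusted p = 4.46e-07). PUF6, an RNA-binding protein that is also known for its part in localizing ASH1 mRNA, had ratios of -3.27 and -2.26 (-2.76 ± 0.71). RLP24 had ratios of -3.18 and -2.25 (-2.72 ± 0.66). The first array was the lower for each of these 3. MAK16 had ratios of -3.44 and -1.95, DBP2 of -2.88 and -2.44, and DBP3 of -2.81 and -2.43. The highest were MAK11 (-0.97 and -0.56), SSF2 (-1.28 and -0.61), RRP1 (-1.28 and -0.79) and NUG1 (-1.29 and -0.97), all of which fell. NOP16 (-1.43 and -0.86, adjusted p = 0.0501), NSA1 (-1.41 and -0.92, which fell), SPB1 (-1.36 and -1.02, adjusted p = 0.137) and LOC1 (-1.72 and -1.42, adjusted p = 0.0590) were of similar size. Without the first array 34 members were called.

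The difference between both wild type responses was tested for each gene. KCl gave the lower ratio for 41 of 50 genes, against 18.0% of all genes, and the median difference was -2.22. NOC2 differed most, by -4.0 ± 0.45 (SE, adjusted p = 2.39e-08), followed by NOP7 at -3.46 ± 0.40 and NIP7 at -3.43 ± 0.41. DBP6 and TIF6 had differences of 0.09 ± 0.32 and 0.23 ± 0.39 and did not pass. When arrays were scaled to the same spread, 13 genes passed in place of 41. KCl and H2O2 arrays of wild type shared no slide, so slide and stress cannot be told apart within a slide here.

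**Figure D2:**
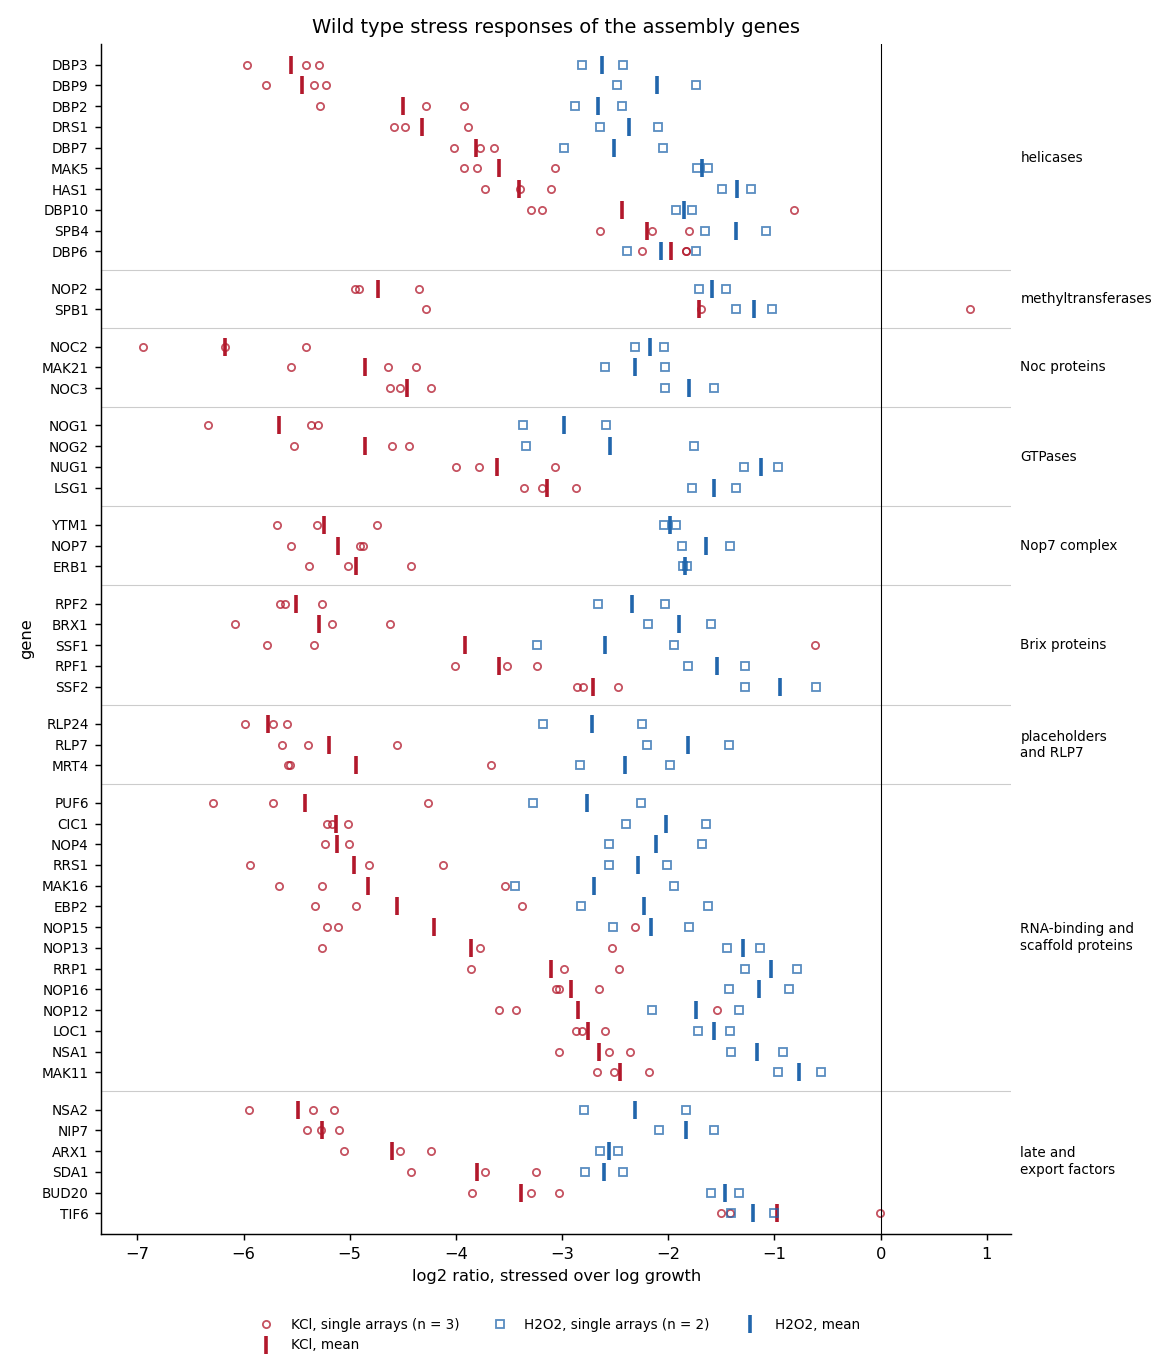
Log2 ratios of each assembly gene in wild type, stressed over log growth, with genes grouped by role. Red circles are the 3 KCl arrays, blue squares the 2 H2O2 arrays and vertical bars the means. All 50 KCl means lie below 0, from -6.18 to -0.98, and all 50 H2O2 means lie between -2.98 and -0.76.

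Heat and rapamycin were measured in wild type on 1 array each, with no replicate check. In heat, 43 of 48 measured genes were at least 2-fold lower, against 18.3% of all genes, with a median of -2.04, and CIC1 was lowest at -4.11. SPB1 was at 0.01, NSA1 at -0.17, RPF1 at -0.31 and RRP1 at -0.33, so the genes least affected in heat differed from TIF6, which was at -1.64. With rapamycin, 47 of 50 were at least 2-fold lower, against 16.9% of all genes, with a median of -3.74 on an array whose own median was 0.38. PUF6 was lowest at -6.73, followed by DBP3 at -6.02 and NOG1 at -5.98. The 3 genes short of 2-fold were LOC1 (-0.50), NOP16 (-0.45) and SSF2 (0.24).

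SSF1 and SSF2 encode a near-identical pair of Brix domain proteins, and whether their probes tell them apart was not tested. SSF1 was at -5.52 with rapamycin where SSF2 was at 0.24. In KCl the 3 arrays gave SSF2 ratios of -2.86, -2.80 and -2.47, above SSF1 on arrays 1 and 3 and below it on array 2. In H2O2, SSF1 had ratios of -3.24 and -1.95 and SSF2 of -1.28 and -0.61, and in heat they were at -1.58 and -1.72.

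In log growth the kcs1/vip1 strain differed little from wild type in these genes. Of 50, 7 were lower, none was higher and 43 did not pass, where 19.0% of all genes were lower. The median was -0.33 (n = 3), with per-array medians of 0.06, -0.51 and -0.36. The 7 were YTM1, SDA1, NSA2, ARX1, DBP7, DBP6 and NOC3. YTM1 had ratios of -0.79, -0.82 and -0.87 (adjusted p = 0.0248), and NSA2 of -0.52, -1.18 and -0.69 (adjusted p = 0.00449), all below 0. The lowest means belonged to genes that did not pass, NOP15 (0.05, -1.93 and -0.74), DBP2 (-1.26, -0.60 and -0.68, adjusted p = 0.0501) and MRT4 (0.05, -1.69 and -0.87). At the top, SPB4 (0.43, 0.59 and 0.36), SPB1 (1.02, -0.20 and 0.26) and NOP12 (1.32, -0.20 and -0.10) did not pass either. The arrays of NOP15, MRT4, SPB1 and NOP12 lay on both sides of 0. The count fell to 1 without the second array and to 2 without array 3, and it was 3 when these arrays were fitted alone. RPL7B was lower at -2.01, -3.23 and -2.60 (adjusted p = 6.00e-10), while RLP7 was at 0.64, -0.04 and -0.20.

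In KCl the kcs1/vip1 strain had more of nearly every assembly transcript than wild type in KCl. Of the 50 genes 48 were higher, against 24.8% of all genes, and none was lower. The median was 2.18 (n = 3), with per-array medians of 2.77, 1.72 and 1.98, beside -0.02 over all genes. Only DBP6 (0.00, 0.15 and 0.31, adjusted p = 0.546) and TIF6 (-0.04, 0.09 and 0.46, adjusted p = 0.586) did not pass. Both had also been among the 3 genes that fell least in wild type.

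BRX1, a Brix domain protein of early precursor particles, was highest, with ratios of 4.58, 3.85 and 3.91 (4.11 ± 0.41, adjusted p = 7.64e-15). NOP7 had ratios of 4.18, 3.79 and 4.14 (4.04 ± 0.21, adjusted p = 9.30e-14). NOP13, a nucleolar RNA-binding protein, had ratios of 4.06, 3.50 and 4.19 (3.92 ± 0.37). For each of these 3 the second array was the lowest, yet all arrays were above 3. The helicase genes DRS1 and DBP9 had ratios of 3.93, 3.52 and 4.00 and of 4.54, 2.71 and 3.45, and MAK21 had ratios of 4.35, 2.52 and 3.67. Of the genes that passed, DBP7 (0.56, 0.83 and 0.79) and SSF2 (1.78, -0.23 and 0.66) were closest to 0. LSG1, the cytoplasmic GTPase of the last maturation steps, had ratios of 1.19, 0.98 and 1.38, and DBP10 had ratios of 1.80, 0.88 and 1.09. SSF2 was the one of these 4 with an array below 0.

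By role, the Nop7 complex (3.17 to 4.04) and the Noc genes (2.23 to 3.51) had the highest medians, at 3.32 and 3.15. The 10 helicase genes spanned 0.15 to 3.82, the widest range, and 9 of them were higher. RLP7 (4.17, 3.21 and 2.41), RLP24 (3.37, 1.83 and 1.63) and MRT4 (2.30, 0.90 and 0.92) were all higher. Of the related ribosomal protein genes RPL24B was higher (0.83 ± 0.60, adjusted p = 0.0468), and RPL24A, RPL7A, RPL7B and RPP0 had means from -0.12 to 0.82 and did not pass. Of the other lists 48 of 51 small subunit genes, 15 of 18 further large subunit assembly genes and 34 of 75 large subunit ribosomal protein genes were higher, with medians of 2.28, 1.42 and 0.76. LTV1 at 4.47 ± 0.65 and RRP12 at 3.46 ± 0.59 led the first 2 of these.

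The excess in KCl over that in log growth was tested within the strain. It was positive for 45 of 50 genes, against 13.4% of all genes, with a median of 2.54. NOP7 (4.59 ± 0.36 SE), NOP13 (4.21 ± 0.52) and BRX1 (4.19 ± 0.33) had the largest differences. TIF6, SSF2, DBP6, SPB1 and NOP16 did not pass, at 0.47 ± 0.35, 0.70 ± 0.37, 0.74 ± 0.29, 1.02 ± 0.75 and 1.28 ± 0.55. Within the 2 slides that held both kinds of array the median difference was 2.79 and 2.51, and all 49 and all 50 members measured there were above 0. The share of all genes above 0 within these slides was not counted.

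**Figure D3:**
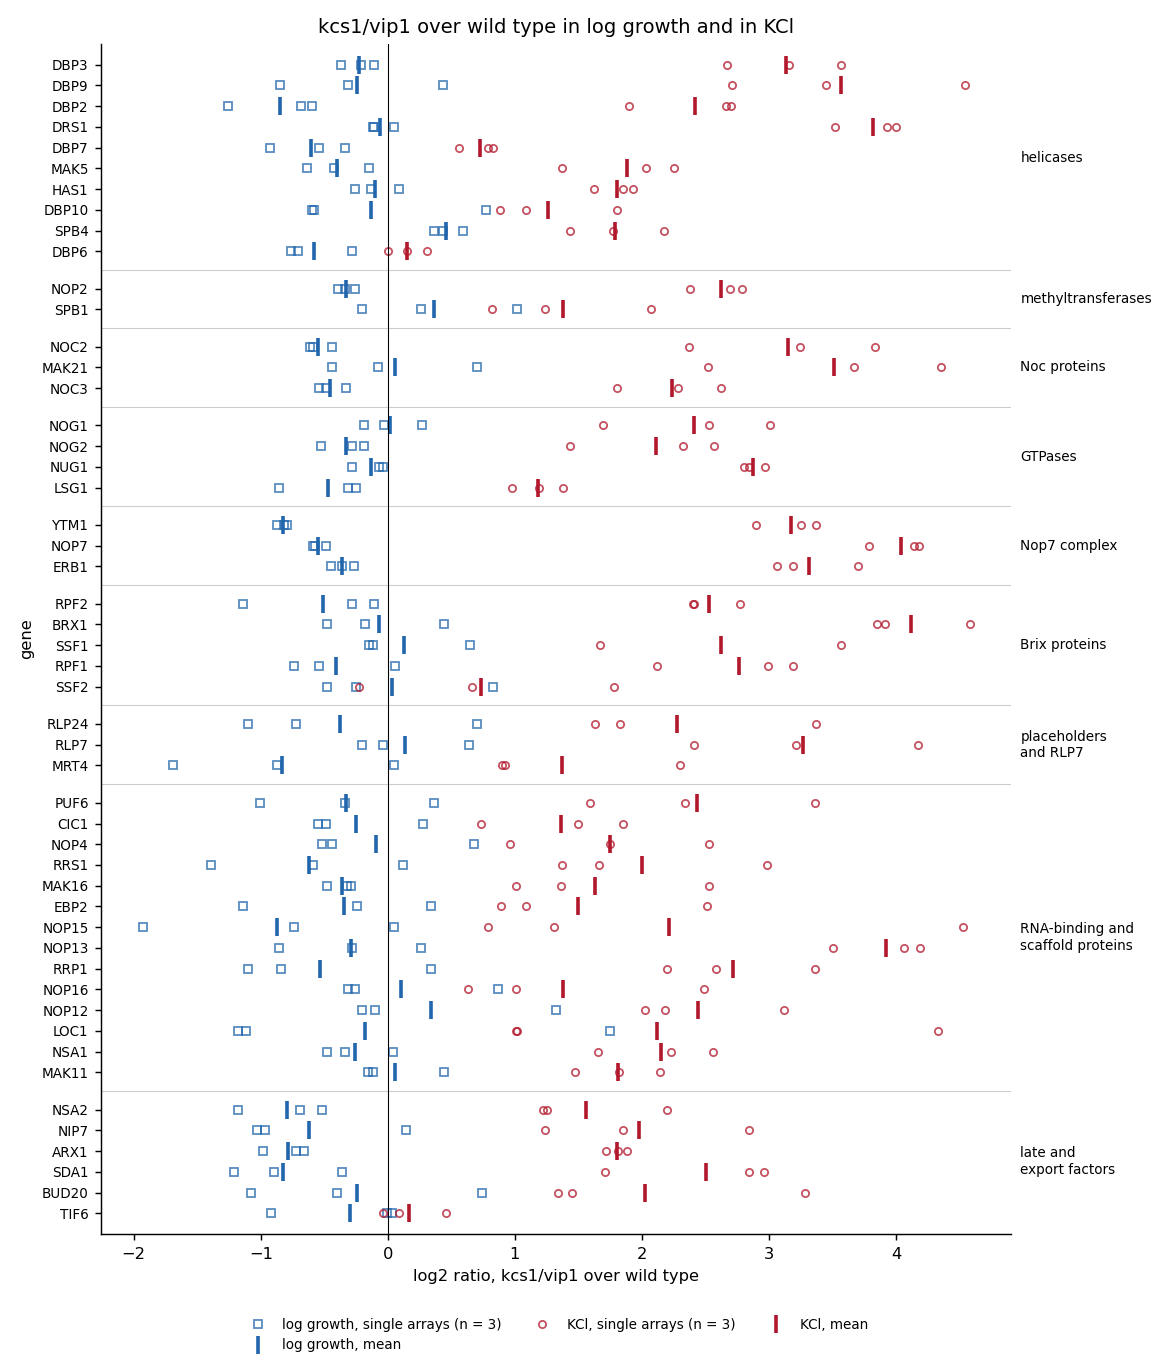
Log2 ratios of each assembly gene in kcs1/vip1 over wild type, with genes grouped by role. Blue squares are the 3 arrays in log growth, red circles the 3 arrays in KCl and vertical bars the means. In KCl the means run from 0.15 (DBP6) to 4.11 (BRX1), and in log growth from -0.87 to 0.46.

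Adding the mean ratios (wild type in KCl, plus the mutant in KCl, less the mutant in log growth) gives each strain's own KCl response per gene. These sums share the wild type KCl arrays and are descriptions without a test. In kcs1/vip1 the median response was -1.45, beside -0.05 over all genes, with a median of 39.7% of the wild type log2 response per gene. Of the 50 genes 36 were at least 2-fold lower, and the share of all genes lower by as much in these sums was not counted. The range was wide. RRP1 had a response of 0.15 where wild type had -3.10. NOP13 had a summed response of 0.36 where wild type had -3.85, but -0.97 on the direct array given below. NSA1, RPF1, DRS1, LOC1, SDA1 and NOP7 had summed responses between -0.24 and -0.52. On that direct array they were lower, from -1.90 to -0.88. CIC1 (-3.52), NOP4 (-3.28), NOG1 (-3.27), NSA2 (-3.13) and RLP24 (-3.12) were the lowest.

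A single array of kcs1/vip1 in KCl over its own log growth gave a direct measurement. Its median was -1.88 over 49 genes, and 39 of them were at least 2-fold lower, against 13.1% of all genes. RRP1 was the highest there, at 0.16. NOP13, the highest in the sums at 0.36, was at -0.97 on this array, so the direct and summed values disagree for it. SDA1, NOP7 and LOC1 were at -1.90, -1.87 and -1.79 on it, where their sums were -0.47, -0.52 and -0.46. Of the others, PUF6 (-3.49), RLP24 (-3.40) and MAK16 (-3.38) were the lowest. The direct value was above the sum for 15 of the 49 genes, with a median difference of -0.28 and a range from -1.57 to 1.26. For how many of all genes it was above the sum was not counted.

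In KCl the single mutants and the altered Vip1 had fewer members past the threshold. In vip1, 18 of 50 genes were higher in KCl, against 4.63% of all genes, with a median of 0.69 (n = 3). RRP1 led with ratios of 2.36, 1.73 and 1.56 (adjusted p = 0.000892), followed by BRX1 (1.59, 1.42 and 1.28) and RPF1 (1.47, 1.48 and 1.04), all above 0 on every array. TIF6 (-0.12, -0.33 and -0.02), DBP7 (-0.16, 0.00 and 0.02) and NSA2 (0.23, 0.07 and -0.26) were lowest and lay around 0. In log growth 7 of 49 tested genes were already higher, against 9.12%, with a median of 0.45 (n = 2). LOC1 (2.58 and 1.55, adjusted p = 0.0309), EBP2 (1.57 and 1.26) and DBP10 (1.50 and 1.31) were the highest of them, NOP15 (2.16 and 1.48) did not pass, and NOG1 (-0.78 and -0.69), TIF6 (-0.44 and -0.77) and NOG2 (-0.38 and -0.36) were lowest and did not pass. Without either log array none of the 7 was called, and in KCl the count was 4 and 5 without the first and the second array. The KCl minus log difference passed for none of 49 genes (median 0.24) by limma's test, against 2.69% higher and 2.99% lower of all genes. At an unadjusted p below 0.05 it was positive for 9 and negative for 2, against 10.8% and 11.5% of all genes. With slide as a block, fixed or random, 5 members passed. The calls over all genes, in either direction, rose as well, from 306 to 807 (fixed) and 817 (random). The cause of this rise was not tested. Both conditions share slides 4 and 5. Within those slides the median difference was 0.39 and 0.43.

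In kcs1, 3 genes were higher in KCl, against 2.71% of all genes, with a median of 0.41 (n = 2). They were BUD20, an export factor (1.75 and 1.42, adjusted p = 0.0155), BRX1 (1.10 and 1.98, adjusted p = 0.00133) and DBP3 (0.57 and 1.22). Without the first array 1 gene was called, and without the second, or with these arrays fitted alone, none. LOC1 (1.87 and 0.75) did not pass. DBP6 (-0.30 and -0.25), DBP2 (-0.86 and 0.48) and DBP7 (-0.16 and -0.21) were lowest. In log growth none of 50 was called, against 0.254% higher and 0.186% lower of all genes, with a median of -0.22. At an unadjusted p below 0.05, 1 gene was lower, against 5.13% of all genes. The library labelled kcs1 is 1 of those 2 log arrays. Without it the count was still 0 and the median -0.36. The KCl minus log difference had a median of 0.68 and no gene passed, among members or among all genes. At an unadjusted p below 0.05 it was positive for 7 members, against 2.33% of all genes.

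In Vip1D487A, 13 of 47 tested genes were higher in KCl, against 1.58% of all genes, with a median of 0.72 (n = 2). Of genes on both arrays, DRS1 (2.15 and 0.98), SDA1 (1.93 and 1.17) and YTM1 (1.96 and 1.05) led, and TIF6 (-0.90 and 0.05), LOC1 (-0.01 and -0.34) and NOP15 (0.35 and -0.29) were lowest. The first array was the higher for each of the 3 leading genes. Without the first array none was called and the median was 0.45, and none was called with these arrays fitted alone. With the sign of the dye-swapped array turned, none of the 13 was called and the median was 0.35. In log growth none was called, against 0.0359% lower of all genes. There 2 were higher at an unadjusted p below 0.05, against 3.18% of all genes. The KCl minus log difference (median 0.82) passed for none of 47 members and for no gene at all. It was positive for 16 at an unadjusted p below 0.05, against 3.42% of all genes.

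In the upstream kinase mutants more genes passed in KCl than in kcs1 or vip1, but whether their ratios differ from those was not tested. In arg82, 38 of 50 genes were higher in KCl, against 13.9% of all genes, with a median of 1.10 and per-array medians of 1.46, 1.14 and 0.84 (n = 3). BRX1 (2.62, 2.54 and 2.74, adjusted p = 5.90e-10), DBP9 (2.93, 2.44 and 2.16) and NOP13 (1.93, 2.04 and 3.04) were highest. The lowest 3 were all helicase genes, DBP6 (-0.02, -0.48 and -0.15), DBP7 (-0.03, 0.09 and -0.04) and DBP10 (0.43, 0.48 and -0.04), and did not pass. In log growth the median was -0.21 (n = 2). None of 46 tested genes was called there, against 7.63% higher and 9.58% lower of all genes. At an unadjusted p below 0.05, 1 was higher and 3 were lower, against 16% and 17.5% of all genes. The KCl minus log difference was positive for 21 of 46, against 2.51%, with a median of 1.35 and DRS1 (2.59 ± 0.41 SE) and SDA1 (2.50 ± 0.48) in the lead. The count was 9 and 7 without the first and the second log array. Within both slides that held both conditions the median difference was 1.49 and 1.38. Without the first KCl array 23 genes were called in KCl.

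In ipk1, 33 of 50 genes were higher in KCl, against 11.4% of all genes, with a median of 1.13 (n = 3). The per-array medians were 1.68, 0.14 and 1.31, and the low one is the slide 7 array. BRX1 was highest, with ratios of 2.13, 1.78 and 2.19 (adjusted p = 6.28e-07), while DBP2 had ratios of 1.25, -1.61 and 0.89. RRP1 (2.55, 0.59 and 2.05), DBP6 (0.41, -0.64 and 0.13) and DBP10 (0.75, -0.78 and 0.32) had the second array lowest too. SSF1 (1.61 and 1.90) and NOP15 (-1.17 and 1.34) had a value on 2 of the 3 arrays and did not pass. Without the slide 7 arrays 40 genes were called and the median was 1.50, and when ipk1 KCl arrays were fitted alone none was called. In log growth 6 were higher and 2 lower, against 12.6% and 12.3% of all genes. The median was 0.16 there, 0.66 without the slide 7 array and -0.31 without the other array. NIP7 (0.79 and 1.59), RLP24 (1.18 and 0.83) and RLP7 (0.61 and 1.26) were highest. DBP2 (-0.76 and -1.80), DBP7 (-0.06 and -1.24) and ARX1 (0.05 and -1.34, which did not pass) were lowest. The KCl minus log difference had a median of 0.92. It was positive for 23 members at an unadjusted p below 0.05, against 6.36% of all genes. At the adjusted threshold it passed for none, against 0.018% of all genes. The count was 29 without the slide 7 KCl array and 12 without the first log array.

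The kcs1/vip1 ratios in KCl were tested against those of each of these mutants. The double mutant was higher than vip1 for 32 genes (against 9.12% of all genes, median 1.49), than kcs1 for 35 (9.62%, median 1.64), than arg82 for 22 (6.43%, median 1.06) and than ipk1 for 24 (8.73%, median 1.14). NOP7 differed most from vip1 (3.15 ± 0.36 SE), from kcs1 (3.71 ± 0.40) and from arg82 (1.92 ± 0.36), and DRS1 from ipk1 (2.69 ± 0.37). TIF6 was within 0.33 of each of the 4. These counts depended on how arrays were scaled. With arrays scaled to the same spread they were 7, 14, 0 and 2, and the cause was not tested. The count against kcs1 was 18 without the first kcs1 array. Against arg82 it was 10 without the first kcs1/vip1 array and 13, 10 and 12 without the first, second and last arg82 array, and with only the compared arrays fitted it was 14. Fitted that way the count against ipk1 was 3. On slide 8, which held kcs1/vip1, kcs1, arg82 and ipk1 in KCl, the median differences from the other 3 were 1.48, 1.10 and 0.81. From ipk1 they were 0.97 and 1.94 on slides 3 and 7. No slide held kcs1/vip1 and vip1 in KCl together.

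The altered Rpd3 gave the other large excess. In Rpd3ibs in KCl 46 of 50 genes were higher, against 15.7% of all genes, with a median of 1.96 and per-array medians of 1.90 and 1.92 (n = 2). RRS1, which acts with Rpf2 in placing a small ribosomal RNA in the particle, had ratios of 3.04 and 3.14 (adjusted p = 1.72e-06). ERB1 had ratios of 3.26 and 2.66 (adjusted p = 9.90e-10) and DBP3 of 2.79 and 2.81 (adjusted p = 1.81e-09). The arrays were close for RRS1 and DBP3, and the first was the higher for ERB1. TIF6 (0.12 and -0.35), LOC1 (0.51 and 1.07), DBP2 (0.81 and 0.78) and NOP15 (0.79 and 1.24) did not pass. DBP6, which had not passed in kcs1/vip1, was higher here, with ratios of 1.13 and 0.79 (adjusted p = 0.00312), and whether the strains differ for it was not tested.

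In log growth Rpd3ibs had 1 gene called, ERB1 (1.07 and 0.45, adjusted p = 0.0486), against 10.3% higher and 10.1% lower of all genes, with a median of 0.19 (n = 2). SPB1 (1.00 and 1.26) and NOP13 (0.72 and 0.86) were highest and LOC1 (-1.38 and -0.70), NOP15 (-1.29 and -0.52) and TIF6 (-0.36 and -0.54) lowest, and none of them passed. The KCl minus log difference was positive for 33 of 50 genes, against 4.29%, with a median of 1.88. RRS1 (2.64 ± 0.61 SE) and DBP3 (2.61 ± 0.38) had the largest. Leaving out any 1 of the 4 arrays gave 11 to 18 genes. Within both slides that held both conditions the median was 1.80 and 1.78, with all 50 members above 0. Here too the share of all genes above 0 was not counted.

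Of the other lists in Rpd3ibs in KCl, 46 of 51 small subunit genes were higher with a median of 1.88, and 5 of 75 large subunit ribosomal protein genes with a median of 0.34. None of the 5 ribosomal protein genes related to RLP7, RLP24 and MRT4 passed, and their means were from 0.16 to 0.44.

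The rpd3 deletion was measured on 1 array in each condition, with no replicate check. In KCl 46 of 48 measured genes were at least 2-fold higher than in wild type, against 18.8% of all genes, with a median of 3.06, and YTM1 (4.96), DRS1 (4.85) and SSF1 (4.81) were highest. TIF6 (0.32) and NOP16 (0.93) were below 2-fold. In log growth the median was -0.08, and 4 genes were at least 2-fold lower, against 8.7% of all genes. They were LOC1, NOP15, MAK16 and MRT4, at -1.49, -1.38, -1.21 and -1.20.

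In snt1 no gene of 49 tested was higher in KCl, against 3.3% of all genes, and the median was 0.06 (n = 2). At an unadjusted p below 0.05, 3 were higher, against 11.4% of all genes. DBP6 was lower (-0.99 and -0.71, adjusted p = 0.0352), against 4.57% of all genes. Of the genes that did not pass, SPB1 (1.32 and 2.46), RRS1 (1.01 and 1.51) and NOG2 (0.50 and 0.69) were highest. MRT4 (-0.93 and -0.65) and NIP7 (-0.79 and -0.41) were the lowest of them. None of 49 was called in log growth (median -0.22, against 4.81% higher and 5.51% lower of all genes). At an unadjusted p below 0.05, 2 were lower there, against 13.9% of all genes. The KCl minus log difference passed for none of 49 members and for no gene at all. It was positive for 1 member at an unadjusted p below 0.05, against 1.84% of all genes.

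Ordered by the median KCl response, the strains were wild type (-4.48), vip1 (-4.23), snt1 (-4.14), kcs1 (-3.62), Vip1D487A (-3.50), ipk1 (-3.34), arg82 (-2.81), Rpd3ibs (-2.55), kcs1/vip1 (-1.45) and rpd3 (-0.96, 1 array). As a median percent of the wild type response per gene these were 93.3% for vip1, 97.6% for snt1, 85.0% for kcs1, 78.1% for Vip1D487A, 77.8% for ipk1, 69.6% for arg82, 56.7% for Rpd3ibs, 39.7% for kcs1/vip1 and 23.3% for rpd3. Of the 8 mutants with a tested KCl minus log difference, arg82, Rpd3ibs and kcs1/vip1 had members past the threshold. With the sign of its dye-swapped arrays turned, Vip1D487A had a median of -3.79 and 91.0%, which moves it above kcs1 in this order. Differences between neighbours in the order were not tested. TIF6 ran from -1.17 in Vip1D487A to -0.14 in rpd3 over the 10 strains. Each mutant's sum includes the wild type mean of TIF6 (-0.98), so these values are not independent. Some other members were closer to 0, such as NSA1 in kcs1/vip1 (-0.24, TIF6 -0.51) and DRS1 in rpd3 (0.03).

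**Figure D4:**
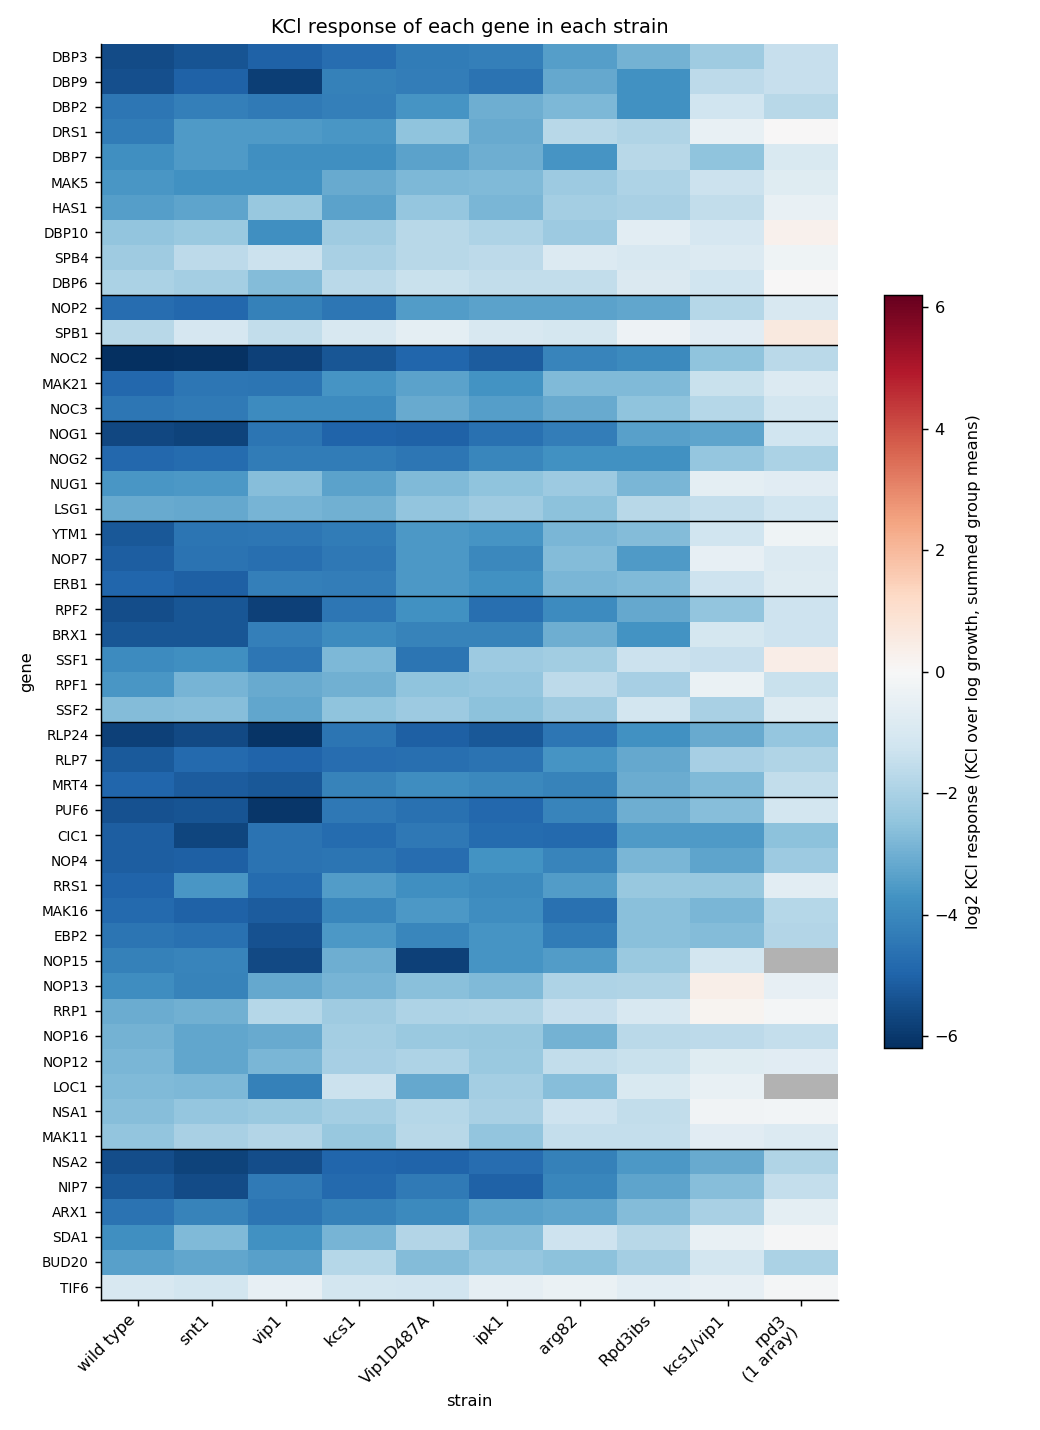
Colour gives the log2 KCl response (KCl over log growth) of each assembly gene, in rows grouped by role, in each strain, in columns. Values are sums of group means that share the wild type KCl arrays, grey is not measured, and rpd3 rests on 1 array per condition. The median goes from -4.48 in wild type to -1.45 in kcs1/vip1 and -0.96 in rpd3.

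In H2O2 no difference was detected between kcs1/vip1 and wild type in these genes. None of the 50 was called, against 3.34% higher and 1.68% lower of all genes by limma's test. At an unadjusted p below 0.05 there was none either, against 9.12% higher and 7.58% lower of all genes. The median was 0.03 (n = 2), with means from -0.47 to 0.55. LEU2 was at 3.19 and 1.57 on these arrays, unlike the other kcs1/vip1 arrays, and its part in the result was not tested. A single array set H2O2 over log growth, both labelled kcs1/vip1, and its VIP1 value was 0.16. Its median was -0.16, and no gene was 2-fold changed, against 3.65% higher and 0.489% lower of all genes. The sum of the other arrays gave a median of -1.60 for the same quantity, and the direct array was higher for all 50 genes. For how many of all genes it was higher was not counted. In heat, the 1 array labelled kcs1/vip1 over wild type, on which VIP1 was at -0.01 and LEU2 at 1.47, had a median of -0.32. There 8 genes were at least 2-fold lower, against 8.78% of all genes.

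Rapamycin was added to KCl in kcs1/vip1 and compared with KCl alone, so both samples had received KCl. No array set rapamycin over log growth in that strain, so its response to rapamycin without KCl was not measured. Of 50 genes 9 were lower, against 2.58% of all genes, none was higher and 41 did not pass. The median was -0.32 (n = 3), with per-array medians of -0.11, -0.68 and -0.20. MAK16 had ratios of -1.16, -2.0 and -1.25 (-1.47 ± 0.46, adjusted p = 0.0305). MRT4 had ratios of -1.37, -1.94 and -0.74 (-1.35 ± 0.60, adjusted p = 0.0159). DBP6 had ratios of -0.63, -1.79 and -0.88 (-1.10 ± 0.61, adjusted p = 0.000540). The second array was the lowest for each of these genes. It lay on slide 7, with the ipk1 arrays that stood apart, and without it none of the 9 was called and the median was -0.12.

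RLP24 (-0.58, -1.58 and -1.01), NIP7 (-0.75, -1.67 and -0.69), RPF2, DBP7, CIC1 and NSA2 were the other 6, with means from -1.06 to -0.81. DBP6 is among the genes that did not pass in kcs1/vip1 over wild type in KCl, while BRX1, NOP7, NOP13 and DRS1, the highest there, were at -0.24, -0.04, -0.01 and 0.07 with rapamycin. LOC1, with ratios of -0.77, -2.84 and -0.65, did not pass. At the upper end SPB4 (0.07, 0.26 and 0.17), SPB1 (0.93, -0.46 and -0.07), NUG1 (0.09, 0.26 and 0.00), YTM1 (0.23, -0.22 and 0.19), DRS1 (0.03, 0.09 and 0.08) and MAK11 (-0.05, -0.02 and 0.06) did not pass. Both placeholder genes, RLP24 and MRT4, were lower, RLP7 (-0.03, -0.61 and -0.15) was not called, and RPL7B was lower (-0.55, -1.31 and -0.94, adjusted p = 0.0195). Of the other lists 8 of 51 small subunit genes were lower, led by SOF1 at -1.35 ± 0.21, none of 20 further large subunit assembly genes was called, and 4 of 75 ribosomal protein genes were lower and 7 higher.

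Side by side, wild type with rapamycin over log growth (1 array) had a median of -3.74, and kcs1/vip1 in KCl with rapamycin over KCl had -0.32. The reference sample of the second was already in KCl, so these 2 values differ in strain and in reference, and the difference between them was not tested.

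**Figure D5:**
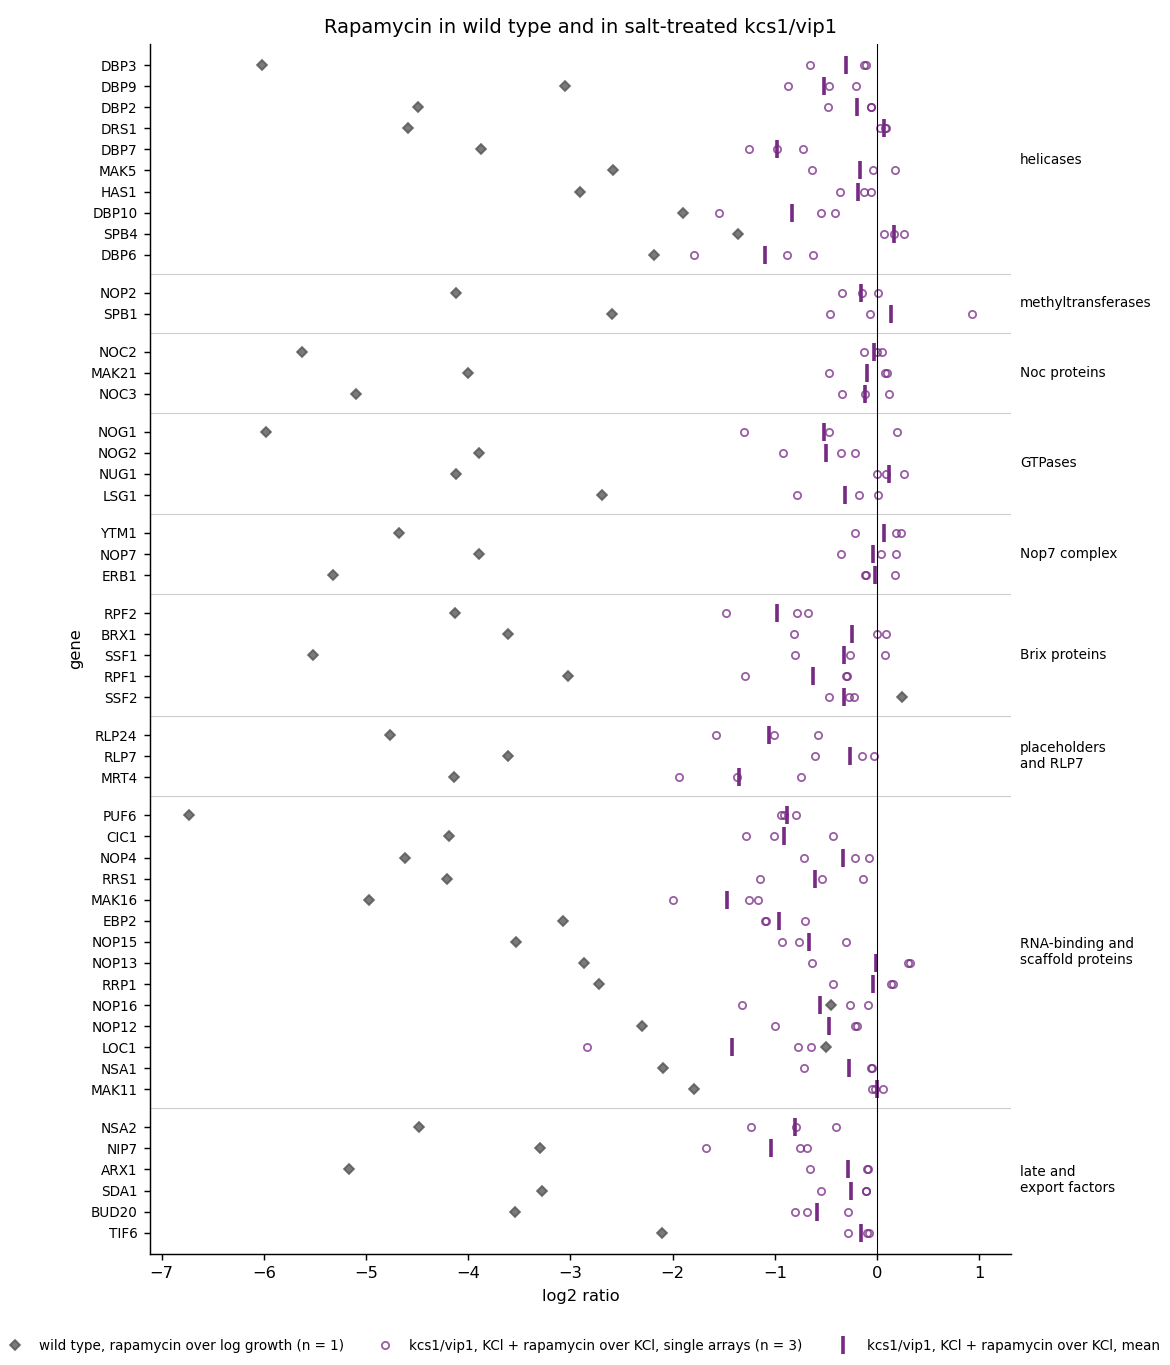
Log2 ratios of each assembly gene with rapamycin, with genes grouped by role. Grey diamonds are the 1 wild type array (rapamycin over log growth), open purple circles the 3 arrays of kcs1/vip1 (KCl with rapamycin over KCl) and purple bars their means. The wild type values run from -6.73 (PUF6) to 0.24 (SSF2), and the kcs1/vip1 means from -1.47 (MAK16) to 0.17 (SPB4).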

How the data were processed

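Per the labels, total RNA of 55 samples was hybridized on two-colour arrays. The authors deposited 1 column of log ratios per array, taken here to be log2 since values carry a sign, lie around 0 on each array and go up to 15.58 in size. The log base, the normalization and the build are not given in the sources used here. For the 3 arrays with swapped dyes the deposited sign was kept. Of 6317 entries 61 controls were left out. Of 6256 probes 4075 carried 1 gene symbol and 2181 none, symbols were brought up to date through the RefSeq table (3942 matched directly, 129 updated, 4 kept), and probes of 7 symbols were averaged, which gave 6249 genes or probes. In 3 columns given to more decimals, 407 exact zeros were treated as missing.

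Arrays were grouped by their labels. The 54 arrays entered 1 model of group means, run in limma 3.58.1 under R 4.3.3 (27 residual and 4.63 prior degrees of freedom, prior SD 0.369), on genes with at least 2 values per group, with Benjamini-Hochberg adjustment over all genes of a comparison and a threshold of 0.05. Differences between groups were contrasts of this model. Comparisons of 1 array were not tested, and 2-fold (a log2 ratio of 1) was counted instead. On simulated data with the real design the model recovered 75% of changes of 1 log2 unit and 98% of those of 2 in wild type KCl, 33% and 94% in kcs1/vip1 KCl minus log, and 25% and 84% in kcs1 KCl minus log. The simulation changed far fewer genes than the 3571 called in wild type KCl and drew noise independently for each array. In the data the correlation within slides was estimated at 0.301, so these shares may not hold for the real tests.

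The members and gene lists were chosen with earlier results of these data known. Values per array are given for the 6 lowest and 6 highest members measured on every array in 4 main comparisons (wild type KCl, wild type H2O2, kcs1/vip1 in KCl, and rapamycin added), and by rule for the 3 lowest and highest elsewhere, for members that did not pass where 8 or fewer, for the placeholders, RLP7, SSF1 and SSF2. This was not done for single mutants in log growth without a call, for kcs1/vip1 in H2O2 or for differences between groups, which have medians, counts and leading genes only; other members named were chosen after their values were seen. Alternatives were array centring, scaling to the same spread, genes on every array, slide as a block, fitting only the arrays compared, keeping zeros, the sign of the swapped Vip1D487A arrays and leaving out arrays. Promoter and protein sequences were not used here. Values were tabulated and plotted in python 3.11.15, numpy 2.4.6, pandas 2.3.3 and matplotlib 3.10.9.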

Additional observations from a re-analysis of the deposited data

Results flagged for a closer look

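One array carries labels that disagree, since its title sets kcs1/vip1 in KCl against kcs1/vip1 and its sample sources name KCl in both channels. It entered no comparison, and it carried a signal in the assembly genes: their median log2 ratio on it was -1.64, beside -1.88 on the array labelled kcs1/vip1 in KCl over log growth and -1.45 for the sum of other arrays. RRP1 was at 0.12 on it and NOG1 at -3.21.

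The test of the difference between conditions picked out mutant effects that were not the same in KCl and in log growth. The mutant over wild type ratio was higher in KCl for 45 of 50 assembly genes in kcs1/vip1, against 13.4% of all genes. It was so for 21 of 46 in arg82, against 2.51%, and for 33 of 50 in Rpd3ibs, against 4.29%. The wild type response was lower in KCl than in H2O2 for 41 of 50 assembly genes, against 18.0% of all genes. No group had 4 or more arrays, so none was searched for single outlying arrays.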

How the results depend on the processing

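Recomputed counts took 1 direction only, that with more reported calls, or that of the median where none was called. For snt1 in KCl this was lower, so members called higher were not counted there. The sign of called members was checked only for wild type KCl and H2O2, kcs1/vip1 in KCl and KCl minus log, added rapamycin and Rpd3ibs in KCl. None changed sign there. Of 330 recomputed counts of called assembly genes over 33 comparisons, 253 stayed within 1.5 times the reported count and 77 did not. The counts for wild type KCl (40 to 50) and H2O2 (34 to 50), kcs1/vip1 in KCl (38 to 48), its KCl minus log difference (36 to 48) and Rpd3ibs in KCl (38 to 49) stayed within it under all alternatives run. With arrays scaled to the same spread the counts in log growth were 4 for kcs1/vip1, 13 for vip1, 1 for kcs1, 1 for arg82, 3 for ipk1, 2 for snt1, 0 for Rpd3ibs and 2 for Vip1D487A. In KCl they were 32 for vip1, 10 for kcs1, 2 for snt1 and 22 for Vip1D487A, and for KCl minus log 7 for vip1, 1 for kcs1, 21 for Rpd3ibs and 2 for Vip1D487A. With this scaling they were 18 for added rapamycin, 7, 14, 0 and 2 for kcs1/vip1 minus vip1, kcs1, arg82 and ipk1, and 13 for wild type KCl minus H2O2. Fitting the compared arrays alone gave 3 for kcs1/vip1, 23 for vip1, 12 for arg82, 0 for ipk1 and 2 for Rpd3ibs in log growth, 35 for vip1 and 0 for kcs1, ipk1, snt1 and Vip1D487A in KCl, 12 for vip1 KCl minus log, 4 for added rapamycin, and 14 and 3 for kcs1/vip1 minus arg82 and ipk1. Slide as a random block gave 1 for arg82 in log growth, 6 for kcs1 and 0 for snt1 in KCl, and 5, 2 and 2 for KCl minus log of vip1, ipk1 and Vip1D487A. As a fixed block, possible only for differences between groups, it gave 5 for vip1 and 1 for Vip1D487A KCl minus log. Without the ipk1 arrays of slide 7, a choice made after seeing the data, ipk1 in log growth had 0, and with the sign of the swapped arrays turned Vip1D487A in KCl had 0. These member counts are not set against the share of all genes, whose calls moved too in several fits. In log growth, fitting the compared arrays alone took all called genes from 2186 to 1108 for kcs1/vip1 and from 1038 to 1847 for vip1. It took them from 893 to 2895 for arg82, from 1397 to 6 for ipk1 and from 1144 to 1150 for Rpd3ibs, in either direction. The cause of these shifts was not tested. Leaving out single arrays gave 1 to 6 for kcs1/vip1, 0 to 0 for vip1, 0 to 3 for ipk1 and 0 to 1 for Rpd3ibs in log growth. In KCl it gave 4 to 12 for vip1, 0 to 1 for kcs1, 23 to 35 for arg82, 18 to 39 for ipk1, 0 to 0 for snt1 and 0 to 15 for Vip1D487A. For KCl minus log it gave 7 to 18 for arg82, 0 to 29 for ipk1 and 11 to 18 for Rpd3ibs, for added rapamycin 0 to 7, and for kcs1/vip1 minus kcs1 and arg82 18 to 35 and 10 to 20. A lone array left in a group was assumed to vary like the other groups. No paired analysis was possible because the labels give no replicate numbers to pair by, but arrays that share a slide were compared through the slide block and within slides. Depth is unknown.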
